A study of Mus musculus with 2 samples.

Results

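The genes described here are 10 genes of amino acid transport and of the response to the transcription factor Atf4, among 22359 protein-coding genes with an annotated transcription start site (TSS). They are the transporter genes Slc3a2, Slc7a5, Slc7a11, Slc7a1, Slc7a3 and Slc1a5, and the genes Atf4, Asns, Trib3 and Ddit3. Slc3a2 was chosen by its read ratio of Msl1 over Nsl1, and the others were added for their known part in the same pathway, with earlier results of these data known. The ratios of Msl1 to Nsl1 are therefore given as a description, and nothing is read from the value at Slc3a2. The 10 genes lie on 10 different chromosomes.

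Mouse embryonic stem cells (mESCs) were cross-linked, their chromatin was sheared, and DNA bound by Msl1 or by Nsl1 was precipitated and sequenced (ChIP-seq), to compare where each protein binds. Both libraries came from untreated wild type cells (label wt) of the 129P2/OlaHsd background, labelled E14 and passage P26. The labels name the polyclonal antibodies anti-Msl1 (3208) and anti-Nsl1 (3130) and a different library kit for each, NEXTFlex for Msl1 and NEBNext for Nsl1. The methods describe a male line kept on CD1 feeder cells and passaged without feeders before use, with leukemia inhibiting factor in the medium, and no label names a further allele or agent.

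Msl1 and Nsl1 are subunits of separate complexes, MSL and NSL, that each contain the histone acetyltransferase Mof, which acetylates lysine 16 of histone H4. When amino acids run short, or under other stress, kinases phosphorylate the translation factor eIF2, and translation of the Atf4 mRNA rises although general translation falls. Atf4 then activates genes that import amino acids, make them, or limit the response. Stem cells divide fast and depend on amino acid import, and the transporters described here carry leucine, glutamine, arginine and cystine among others.

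Sequencing gave 23888517 reads of 50 bases for Msl1 and 26084098 reads of 36 bases for Nsl1. After repeats of a position and strand were dropped, 19483142 and 24883001 nuclear reads were left, so that 18.3% and 4.56% of the nuclear reads were repeats. The fragment length estimated from the shift between strands was 214 bases for Msl1 and 134 bases for Nsl1. Antibody, kit, read length and fragment length all differed between the libraries and cannot be told apart, and no Input library was used here. With 1 library per antibody there is no replicate and no test between the libraries. Intervals are exact 95% Poisson intervals for reads over a local level, which is taken as known, and exact 95% binomial intervals for ratios and shares, and they cover counting error only. At the TSSs of 7 stem cell markers, Msl1 reads within 500 bases ranged from 1.53 to 5.20 times the local level, with Pou5f1 highest, and at 5 markers of fibroblasts and other lineages that had enough reads from 0.585 to 4.41, so these levels do not check the cell type. Nsl1 stayed under 3 times the local level at all 12 of these TSSs.

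Letters at the promoters show what kind of sequence the reads came from. A CARE, the composite element bound by C/EBP and Atf4 dimers, was searched for as TGATGNAA on both strands within 500 bases of each TSS. It occurred at 5 of the 10 genes, in 7 sites, and at 10.7% of all 22359 TSSs. The 7 sites are shown since they are the letters in these windows that match the Atf4 element. Each is written 5′ to 3′ on the strand of its gene on mm9, with the motif in capitals, and reads TTNCATCA where the motif is on the other strand.
Slc7a11, 66 bases upstream of the TSS, chr3:50247584-50247611, minus strand: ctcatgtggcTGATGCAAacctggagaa
Slc7a11, 47 bases upstream, chr3:50247565-50247592, minus strand: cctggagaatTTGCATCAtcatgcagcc
Slc7a1, 66 bases downstream, noncoding exon, chr5:149211397-149211424, minus strand: ggcgcgcggcTGATGAAAccggctcgga
Slc7a1, 397 bases downstream, intron, chr5:149211066-149211093, minus strand: gcgtggtgcaTGATGCAAcagcgggagg
Asns, 361 bases upstream, in an exon of Asns-001, chr6:7643215-7643242, minus strand: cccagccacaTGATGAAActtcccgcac
Trib3, 14 bases upstream, chr2:152169765-152169792, minus strand: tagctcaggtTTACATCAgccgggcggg
Ddit3, 282 bases upstream, chr10:126727538-126727565, plus strand: ttgccaaacaTTGCATCAtccccgcccc

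Slc7a11 carried a pair of these sites in opposite directions within 30 bases, while the pair at Slc7a1 lay inside the transcript. No match lay in these windows at Slc3a2, Slc7a5, Slc7a3, Slc1a5 and Atf4. The shorter form of the antioxidant response element, TGACNNNGC on either strand, occurred at 3 of the 10 genes (Slc7a5, Slc7a11 and Slc7a1) and at 33.9% of all TSSs.

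Slc3a2, Slc7a5 and Atf4 have promoters rich in CG pairs, and so have Slc7a1 and Asns. Slc3a2 and Slc7a5 each share their promoter with an RNA gene read the other way. At Ddit3 the noncoding gene RP24-341K21.6, also read the other way, has starts 50 bases upstream and 14 bases downstream of the TSS. Over the 1001 bases around the TSS, the ratio of observed to expected CG pairs was 0.968 at Slc3a2, 1.03 at Slc7a5 and 0.918 at Atf4. It was 0.825 at Asns and 0.821 at Slc7a1, against a median of 0.553 over all TSSs. It was lowest at Slc7a11 with 0.354 and Slc7a3 with 0.514. The share of G and C at Slc3a2 was 52.3%, under the median of 55.0%. The stretches below are shown since the reads of both libraries are described on either side of them. They are on mm9, written 5′ to 3′ on the strand of the named gene, with CG pairs in capitals.
Slc3a2, the 126 bases between the starts of Snhg1 and Slc3a2-202, chr19:8797860-8797985, minus strand: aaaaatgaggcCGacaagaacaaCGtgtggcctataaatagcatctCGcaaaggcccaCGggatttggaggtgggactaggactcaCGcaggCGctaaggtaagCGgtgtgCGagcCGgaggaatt
Slc7a5, the 138 bases between the starts of BC048644 and Slc7a5-201, chr8:124431595-124431732, minus strand: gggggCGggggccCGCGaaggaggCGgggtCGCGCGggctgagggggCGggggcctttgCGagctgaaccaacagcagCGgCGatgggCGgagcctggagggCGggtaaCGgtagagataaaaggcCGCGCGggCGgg
Atf4, the 140 bases upstream of Atf4-202, chr15:80085474-80085613, plus strand: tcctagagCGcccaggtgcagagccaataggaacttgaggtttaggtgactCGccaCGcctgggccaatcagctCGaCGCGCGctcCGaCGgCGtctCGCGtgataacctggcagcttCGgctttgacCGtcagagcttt

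Msl1 reached at least 3 times the level of its surroundings at the TSSs of Atf4, Slc7a1, Slc3a2, Asns and Slc7a5, and Nsl1 at those of Atf4 and Asns. Below this mark, the interval still lay above 1 for Msl1 at Slc1a5 and Trib3, and for Nsl1 at Slc1a5, Ddit3 and, narrowly, Slc3a2. The reads within 500 bases of a TSS were divided by the same library's reads per kb between 5 and 50 kb away on either side (the local level). In genes longer than 5 kb this level includes part of the gene itself. Values over gene bodies therefore cannot be compared between genes of different length. Of the 8 genes with at least 20 reads of both libraries together, Msl1 reached 3 times the local level at 5, beside 29.8% of the 17438 TSSs tested. Nsl1 reached it at 2 of the 8, beside 29.8% of the same 17438, which are meant by all TSSs where levels are compared. Atf4, Slc7a1 and Slc3a2 passed the mark for Msl1 under every alternative setting tried at the same start. Slc7a5 fell to 2.77 with all reads kept and to 2.91 with the local level taken from 5 to 20 kb, and Asns to 2.52 with that level and to 2.59 against the mean level of the library over the genome, so that the call at these genes rests on the setting. For Nsl1, Asns fell to 2.84 within 1000 bases of the TSS. The median over the 8 genes was 3.21 for Msl1 and 1.65 for Nsl1, beside 2.22 and 2.02 over all TSSs. Both the count and the Msl1 median include Slc3a2, which was chosen on its Msl1 reads, and the other genes were chosen with earlier results known, so nothing is read from them. Slc7a11 and Slc7a3, with 15 and 13 reads of both libraries together, were below the minimum and are described by their counts.

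**Figure D1:**
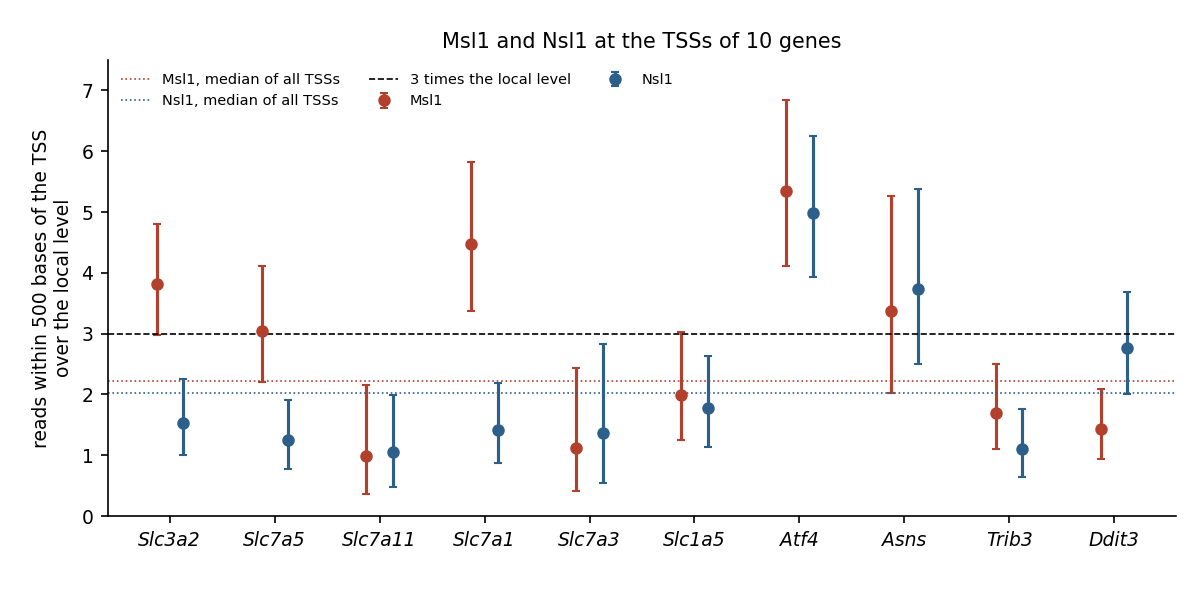
Reads within 500 bases of the TSS over the local level (y axis) for the 10 genes (x axis), in the Msl1 library (red) and the Nsl1 library (blue); points are single libraries, bars are exact 95% Poisson intervals, dotted lines are the medians of all TSSs (2.22 and 2.02) and the dashed line is 3 times the local level. Msl1 is above the dashed line at Slc3a2, Slc7a5, Slc7a1, Atf4 and Asns, and Nsl1 at Atf4 and Asns.

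Slc3a2 encodes the heavy chain of CD98, the partner that carries light chains such as Slc7a5 and Slc7a11 to the cell surface. It lies on the minus strand at chr19:8781372-8797859. At its upstream start (transcript Slc3a2-202), 71 Msl1 reads lay within 500 bases, 3.81 times the local level (2.97 to 4.80), and 26 Nsl1 reads, 1.53 times (1.00 to 2.25). Within 2 kb there were 298 Msl1 and 71 Nsl1 reads, a ratio per read of the library of 5.36 (4.13 to 7.05), which ranked 4 among the 14627 TSSs with at least 100 reads. This is the contrast that chose the gene. The same ratio was 3.49 (2.20 to 5.70) within 500 bases, and 3.82 within 2 kb with each library taken over its local level.

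Most of these Msl1 reads lay on the side of Snhg1 rather than over Slc3a2. Snhg1 is a long noncoding RNA gene that hosts small nucleolar RNAs in its introns, and its start lies 127 bases from that of Slc3a2-202 on the other strand. Of the 298 Msl1 reads within 2 kb, 237 lay on the Snhg1 side (79.5%, 74.5 to 84.0), against 36 of the 71 Nsl1 reads (50.7%, 38.6 to 62.8). The ratio of Msl1 to Nsl1 was 8.41 (5.90 to 12.3) on the Snhg1 side and 2.23 (1.45 to 3.48) on the Slc3a2 side. Over the whole of Snhg1 (chr19:8797986-8800932), Msl1 held 296 reads at 5.39 times the local level (4.79 to 6.04) and Nsl1 47 reads at 0.941 times (0.691 to 1.25). The Msl1 signal was strongest in the 2 kb next to Slc3a2, at 6.36 times the local level (5.57 to 7.22), and was 1.79 times (1.45 to 2.17) from 2 to 5 kb away, a span that holds the end of Snhg1. Nsl1 was not detectable above its surroundings over Snhg1 at this depth. Between both starts, in the first stretch printed above, there were 0 Msl1 reads, an interval that reaches up to 1.57 times the local level, and 5 Nsl1 reads. Windows of 500 bases around the start of either gene share most of their bases, so that the reads near the starts cannot be assigned to 1 of them.

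For each gene the window of 500 bases with the most reads was taken, from 5 kb before the gene to 5 kb past its end, and the interval of such a maximum does not cover the choice. For Msl1 at Slc3a2 it was centred 1100 bases upstream of Slc3a2-202 with 77 reads, 8.24 times the local level (6.51 to 10.3), 62 bases from the start of the small nucleolar RNA SNORD27. At the starts of the 8 small nucleolar RNAs annotated in Snhg1, whose windows overlap, Msl1 ranged from 2.75 to 7.34 times the local level and Nsl1 from 0.845 to 1.13 times. Over the coding gene Msl1 was lower. In the 2 kb after Slc3a2-202 it held 61 reads at 1.64 times the local level (1.25 to 2.10), and in the first intron beyond that, up to 2 kb before the next start, 0.765 times (0.604 to 0.954). The second start, that of Slc3a2-201, lies 9472 bases downstream, and most exons follow it. There Msl1 held 52 reads within 500 bases, 2.78 times the local level (2.08 to 3.65), and Nsl1 24 reads, 1.51 times (0.969 to 2.25). The local level taken at this start includes Snhg1 with its 296 Msl1 reads, and the level without them was not tested. In the 2 kb after this start Msl1 was 2.60 times the local level (2.11 to 3.17) and Nsl1 1.83 times (1.40 to 2.34), and from there to the end of the gene they were 1.67 and 1.03 times. Measured at the second start, the ratio of Msl1 to Nsl1 within 2 kb was 2.13 (1.63 to 2.81).

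**Figure D2:**
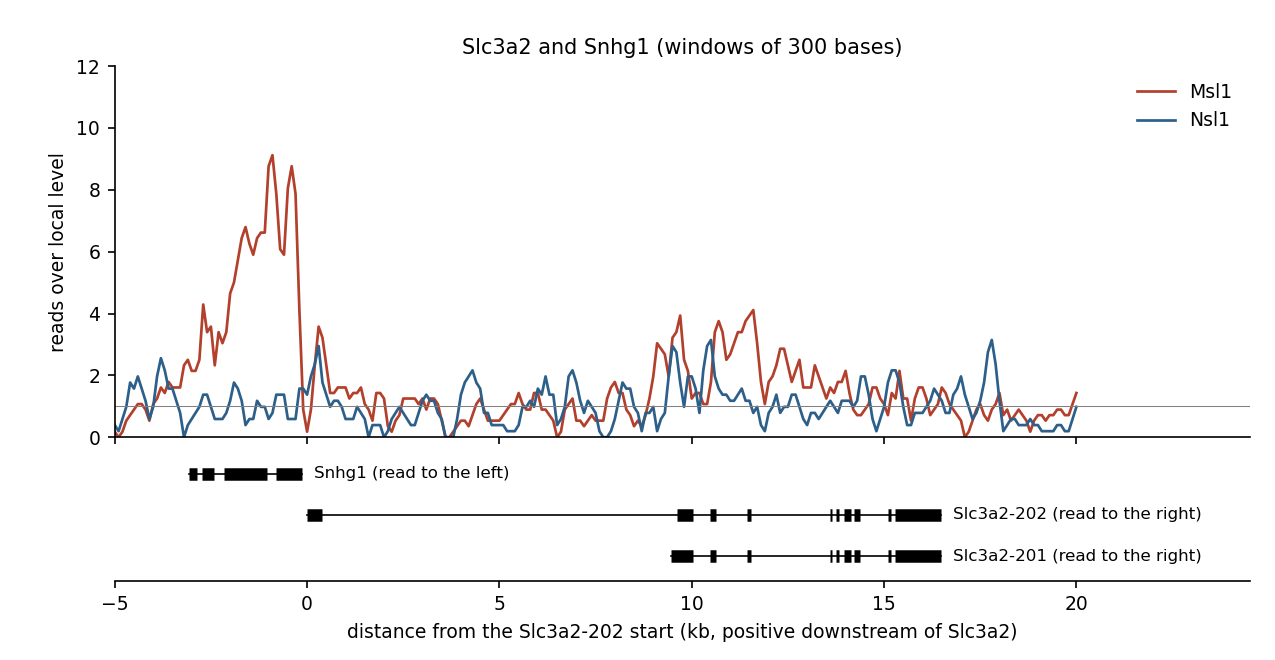
Msl1 (red) and Nsl1 (blue) reads over the local level in windows of 300 bases (y axis) against the distance from the Slc3a2-202 start in kb (x axis), with the exons of Snhg1, Slc3a2-202 and Slc3a2-201 as boxes below. Msl1 is high over most of Snhg1, where it averages 5.39 times the local level, declines towards the end of that gene, falls off between both starts, and is lower again just downstream of Slc3a2-202 and around and after the Slc3a2-201 start, while Nsl1 stays near 1 over Snhg1.

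Slc7a5 encodes the light chain LAT1, which pairs with Slc3a2 to import large neutral amino acids such as leucine. It lies on the minus strand at chr8:124405052-124431594, with the start of the noncoding RNA gene BC048644 139 bases away on the other strand. Msl1 held 43 reads within 500 bases of the TSS, 3.05 times the local level (2.21 to 4.10), and Nsl1 21 reads, 1.25 times (0.774 to 1.91). Here the arrangement was the opposite of that at Slc3a2, since the Msl1 reads lay over the coding gene. Of 165 Msl1 reads within 2 kb, 38 lay on the BC048644 side (23.0%, 16.8 to 30.2), and of 70 Nsl1 reads 35 did. From 500 to 2000 bases downstream Msl1 was 4.44 times the local level (3.59 to 5.43), and its highest window lay 1000 bases downstream with 5.80 times (4.16 to 7.87). The ratio of Msl1 to Nsl1 within 2 kb was 3.01 (2.26 to 4.04), and 4.63 (3.17 to 6.94) on the Slc7a5 side alone.

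Slc7a11 encodes xCT, the cystine and glutamate exchanger that also pairs with Slc3a2, and lies on the minus strand at chr3:50168858-50247535. With 6 Msl1 and 9 Nsl1 reads within 500 bases, 0.991 (0.364 to 2.16) and 1.05 times the local level (0.481 to 1.997), neither protein was detectable above its surroundings at this depth. Within 2 kb the ratio of Msl1 to Nsl1 was 1.17 (0.707 to 1.93). The local level itself was low, 6.06 Msl1 and 8.56 Nsl1 reads per kb, against 18.64 and 16.96 at Slc3a2. Over the gene from 2 kb to its end Msl1 was 1.26 times the local level (1.16 to 1.37) and Nsl1 1.11 times (1.03 to 1.197). The local level of this long gene includes part of the gene itself.

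Slc7a1 and Slc7a3 encode transporters of the cationic amino acids arginine and lysine. At Slc7a1 (chr5:149138986-149211480, minus strand), 55 Msl1 reads lay within 500 bases of the TSS, 4.47 times the local level (3.37 to 5.82), a value that 7.94% of all tested TSSs reached. Nsl1 held 20 reads there, 1.42 times (0.868 to 2.19). The highest Msl1 window was centred 550 bases downstream with 62 reads, 10.1 times the local level (7.71 to 12.9), the highest such value of the 10 genes. This window holds the intron site TGATGCAA printed above, and the highest Nsl1 window within 2 kb of the TSS reached 1.98 times the local level. At the 2 further annotated starts of Slc7a1, 7089 and 28358 bases downstream, Msl1 was 1.62 and 1.54 times the local level, and Nsl1 1.15 and 1.61 times. The highest Nsl1 window of the whole gene was centred 8 bases from the farther of these starts, with 20 reads and 2.84 times (1.73 to 4.38). Among the annotated starts of Slc7a1, Msl1 thus passed 3 times the local level at the one farthest upstream alone.

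Slc7a3 lies on chromosome X (chrX:98274561-98281359, minus strand), where the local level was lower, 5.37 Msl1 and 5.11 Nsl1 reads per kb. The median local level over X-linked TSSs was 5.20 and 5.57 reads per kb, against 11.2 and 12.9 on the autosomes. Within 500 bases of these X-linked TSSs the median Msl1 level was 3.06 times the local level, against 2.20 times on the autosomes. At the start of Slc7a3-001 there were 6 Msl1 and 7 Nsl1 reads within 500 bases, 1.12 (0.410 to 2.43) and 1.37 times the local level (0.551 to 2.82). Further starts are annotated 648 and 668 bases downstream, and there Msl1 held 19 and 20 reads, 3.58 (2.15 to 5.59) and 3.77 times the local level (2.30 to 5.82), with Nsl1 at 1.35 and 1.54 times. The highest Msl1 window was centred 1100 bases downstream of Slc7a3-001, with 23 reads and 8.55 times the local level (5.42 to 12.8). That of Nsl1 was centred 4200 bases downstream, with 12 reads and 4.69 times (2.42 to 8.19). From 2 kb to the end of the gene Msl1 was still 3.53 times the local level (2.84 to 4.33), and Nsl1 was 1.42 times (0.992 to 1.98). This Msl1 value was the highest of the 9 genes long enough to have one, but the local level of longer genes includes more of the gene itself. Slc7a3 is also the only X-linked gene among them, and the gene bodies of other X-linked genes were not counted. At the starts annotated 1839, 3561 and 3787 bases downstream, Msl1 was 3.08, 5.19 and 4.07 times the local level. Of the downstream starts named here, only the one at 3561 bases had an Msl1 interval (3.42 to 7.55) above the X-linked median of 3.06. The Slc7a3-001 start thus lies upstream of a stretch where Msl1 was higher than at this start, mostly at levels near those of other X-linked TSSs.

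Slc1a5 encodes ASCT2, which exchanges glutamine and other neutral amino acids, and lies at chr7:17366695-17383606 on the plus strand. Within 500 bases Msl1 and Nsl1 were similar, with 22 reads at 1.99 times (1.25 to 3.02) and 24 reads at 1.77 times the local level (1.14 to 2.64). The Msl1 signal began farther in. From 500 to 2000 bases downstream Msl1 was 5.20 times the local level (4.16 to 6.42) and Nsl1 1.38 times (0.916 to 1.99), and the highest Msl1 window, 800 bases downstream, reached 9.41 times (7.03 to 12.3). At the Slc1a5-003 start, 3392 bases downstream, Msl1 was 3.12 times (2.16 to 4.36) and Nsl1 1.34 times the local level (0.792 to 2.11), and at Slc1a5-004, 4320 bases downstream, they were 1.01 and 0.970 times. Within 1000 bases of the TSS in place of 500, Msl1 at Slc1a5 was 3.44 times the local level, past the mark of 3. The ratio of Msl1 to Nsl1 was 1.17 (0.626 to 2.18) within 500 bases and 2.21 (1.64 to 3.01) within 2 kb.

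Atf4 encodes the transcription factor itself and, within 500 bases of its Atf4-201 start, had the highest values of the 10 genes over the local level in both libraries. By reads, and against the mean level of the library over the genome, Msl1 was higher at Slc3a2 (71 against 63 reads, and 9.67 against 8.58 times). It lies on the plus strand at chr15:80085931-80087934 (Atf4-201), with a second start, that of Atf4-202, 317 bases upstream. At Atf4-201 there were 63 Msl1 reads, 5.34 times the local level (4.11 to 6.84), and 75 Nsl1 reads, 4.99 times (3.92 to 6.25). Of all tested TSSs, 3.30% reached this Msl1 value and 12.4% this Nsl1 value. At Atf4-202 Msl1 was lower, 3.14 times (2.21 to 4.33), and Nsl1 was 5.24 times (4.15 to 6.53). The highest windows of the proteins had different centres and overlapped in part. That of Nsl1 was centred 200 bases upstream of Atf4-201, which is 117 bases downstream of Atf4-202, with 60 reads, 7.97 times the local level (6.08 to 10.3), and that of Msl1 100 bases downstream with 49 reads, 8.30 times (6.14 to 10.97). From 500 to 2000 bases downstream, a span that reaches nearly to the end of this short gene, Msl1 was 4.69 times (3.74 to 5.82) and Nsl1 1.64 times the local level (1.16 to 2.26).

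Asns encodes asparagine synthetase, a target of Atf4, and lies on the minus strand at chr6:7625169-7642871 (Asns-002). Msl1 held 19 reads within 500 bases, 3.37 times the local level (2.03 to 5.26), and Nsl1 29 reads, 3.74 times (2.50 to 5.37), a value reached by 21.3% of all tested TSSs. Around the Asns-001 start, 383 bases upstream and near the CARE site, Msl1 was 2.83 times (1.62 to 4.60) and Nsl1 4.24 times the local level (2.92 to 5.96). Around the Asns-005 start, 649 bases downstream, Msl1 was 5.03 times (3.34 to 7.27) and Nsl1 1.27 times (0.611 to 2.34). The highest Nsl1 window near the TSS lay upstream of Asns-002, at 250 bases and 5.92 times (3.75 to 8.88), but downstream of Asns-001, and that of Msl1 lay downstream of both, at 1050 bases and 6.37 times (3.77 to 10.1). The highest Nsl1 window of the whole gene lay inside it, 2100 bases downstream, with 24 reads at 6.18 times (3.96 to 9.19). No annotated start was closer to it than 1451 bases, and the Nsl1 window upstream of Asns-002 held 23 reads. From 2 kb to the end of the gene, Asns was above the local level in both libraries, 2.18 times for Msl1 (1.88 to 2.51) and 1.58 times for Nsl1 (1.37 to 1.82). That level includes part of the gene.

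Trib3 and Ddit3, which act late in the response, did not reach 3 times the local level in either library. Against the mean level of the library over the genome, Msl1 was 3.41 times at Trib3 and 3.54 times at Ddit3, and Nsl1 4.80 times at Ddit3, beside 54.0% and 42.9% of all TSSs past 3 times on that scale. Trib3 encodes a pseudokinase that inhibits Atf4 and lies at chr2:152163158-152169768 on the minus strand. It held 25 Msl1 reads, 1.70 times the local level (1.10 to 2.50), and 17 Nsl1 reads, 1.10 times (0.641 to 1.76). The nearest high Nsl1 window lay 4840 bases past the end of Trib3 and 71 bases from the start of Rbck1, its neighbour, with 95 reads and 12.3 times the local level (9.93 to 14.998). At the start of the noncoding gene Gm14164, 1637 bases upstream, Msl1 was 1.16 and Nsl1 1.04 times the local level. Within 2 kb of the Trib3 start no Nsl1 window exceeded 1.94 times the local level.

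Ddit3 encodes CHOP, a stress factor that can lead to cell death, and lies at chr10:126727830-126733344 on the plus strand. Of the 10 genes it had the lowest ratio of Msl1 to Nsl1 within 500 bases, 0.738 (0.437 to 1.22). Msl1 held 26 reads, 1.43 times the local level (0.934 to 2.10), and Nsl1 45 reads, 2.76 times (2.01 to 3.69). The highest Nsl1 window, with 34 reads and 4.16 times (2.88 to 5.81), was centred 150 bases upstream, 100 bases from a start of the noncoding gene RP24-341K21.6 on the other strand. The highest Msl1 window, with 36 reads and 3.95 times (2.77 to 5.47), lay 2500 bases upstream and 240 bases from the start of the processed transcript RP24-341K21.5. Neither maximum was centred over the body of Ddit3, though the Nsl1 window reached across its start. Within 2 kb of the TSS, the highest Msl1 window was centred 350 bases downstream, with 26 reads and 2.85 times (1.86 to 4.18). From 500 to 2000 bases downstream Msl1 was 1.91 times the local level (1.42 to 2.50). At the 4 Mbd6 starts within 5 kb upstream, Msl1 ranged from 0.605 to 1.10 times the local level and Nsl1 from 0.790 to 1.45 times.

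**Figure D3:**
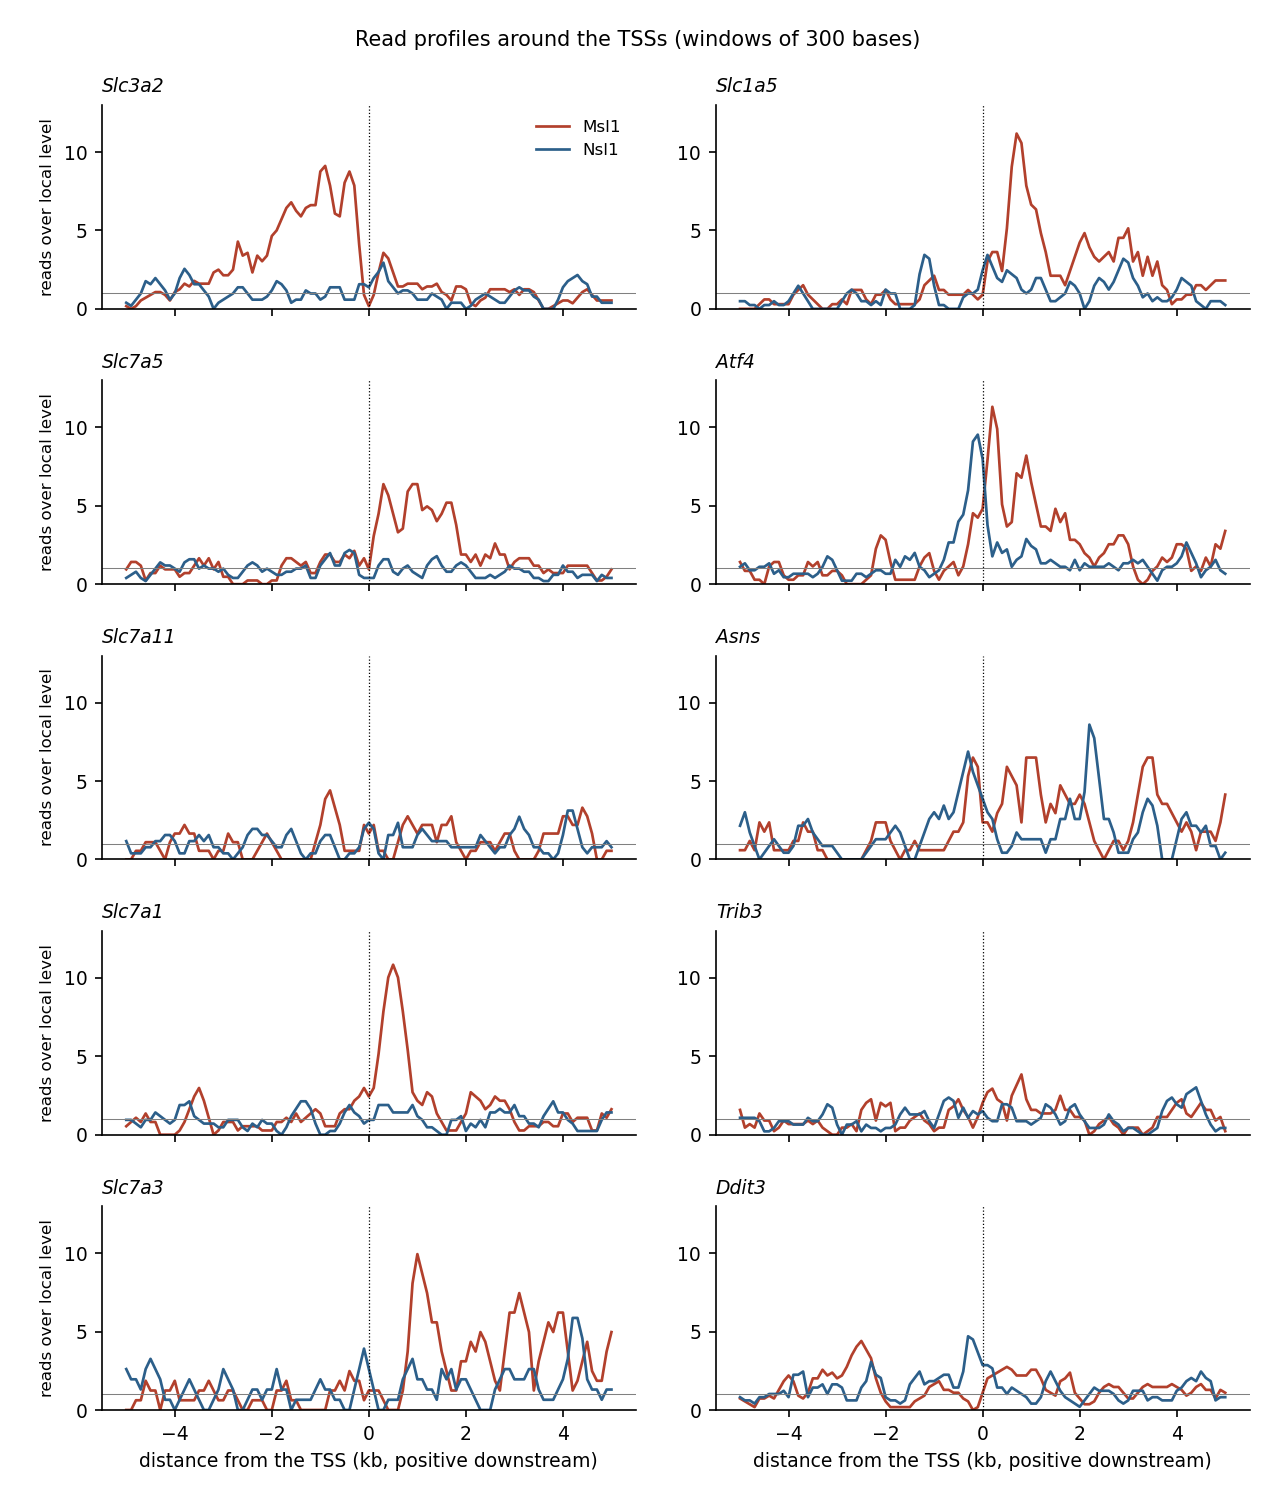
Msl1 (red) and Nsl1 (blue) reads over the local level in windows of 300 bases (y axis) from 5 kb upstream to 5 kb downstream of each TSS (x axis, dotted line at the TSS), 1 panel per gene. Msl1 is highest downstream of the TSS at Slc7a5, Slc7a1, Slc7a3, Slc1a5 and Atf4 and upstream, over Snhg1, at Slc3a2. The Nsl1 maxima at Atf4 and Ddit3 lie just upstream of the start used, and at Asns Nsl1 is high both just upstream and near 2 kb downstream.

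By position, Msl1 was higher from 500 to 2000 bases downstream of the TSS than over the same span upstream at each of the 10 genes except Slc3a2. The share of all TSSs with this order was not counted, so it is not read as a trait of these genes. At Slc7a11 and Trib3 the intervals of both spans overlapped. From 500 to 2000 bases downstream, Msl1 ranged from 1.43 times the local level at Slc3a2 to 5.20 times at Slc1a5, and Nsl1 from 0.668 at Slc3a2 to 1.83 at Slc7a3. From 2000 to 500 bases upstream, Msl1 ranged from 0.735 at Atf4 to 1.32 at Slc7a5, apart from Slc3a2 with 6.69 over Snhg1. The downstream ratio, the reads per kb from 500 to 2000 bases over those within 500 bases, had a median of 1.33 for Msl1 and 0.706 for Nsl1 over the 10 genes. Over the 8 genes that passed the read minimum the medians were 1.23 and 0.547, beside 0.773 and 0.576 over all tested TSSs. For Msl1 the ratio was highest at Slc7a3 with 3.89 (1.62 to 11.3) and Slc1a5 with 2.61 (1.62 to 4.37), and lowest at Slc3a2 with 0.376 (0.248 to 0.561) and Slc7a1 with 0.667 (0.450 to 0.987). Its interval also lay above 1 at Slc7a5, narrowly (1.01 to 2.14), and included 1 at Slc7a11, Atf4, Asns, Trib3 and Ddit3. At Slc3a2 the window within 500 bases, by which the ratio divides, includes reads on the Snhg1 side, and at Slc7a1 the highest window, at 550 bases, lay across the edge between both parts.

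Within 2 kb, Msl1 was at least 2 times Nsl1, per read of each library, at 4 of the 8 genes with at least 100 reads (Slc3a2, Slc7a5, Slc7a1 and Slc1a5), beside 13.4% of the 14627 TSSs tested. Of the other lists, 1 of 8 other genes of the Slc7 family with Slc3a1, 4 of 20 other amino acid transporters and 6 of 18 other Atf4 targets did so. Among eIF2 kinases and stress factors it was 4 of 13, among stem cell markers 5 of 6, and among the other markers 0 of 5. Since the choice of Slc3a2 used this contrast, nothing is read from the count. Among the others, Atf4 was at 1.39 (1.10 to 1.75), Trib3 at 1.40 (1.03 to 1.92), Ddit3 at 1.18 (0.892 to 1.57) and Asns at 1.17 (0.819 to 1.66), beside a median of 1.29 over the 14627 TSSs. Slc7a3 was at 2.07 (1.28 to 3.41) with 47 Msl1 and 29 Nsl1 reads, below the minimum of 100. Its ratio was 1.09 (0.304 to 3.80) within 500 bases, and 1.54 within 2 kb with each library taken over its local level.

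**Figure D4:**
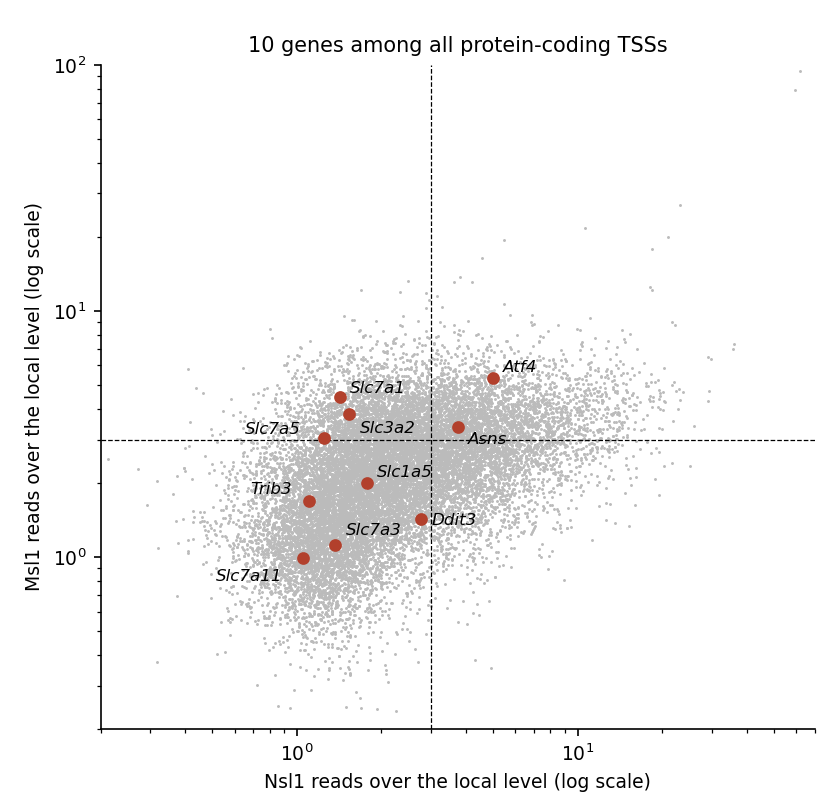
Msl1 reads (y axis) against Nsl1 reads (x axis) within 500 bases of the TSS, each over its local level on a log scale. Grey points are protein-coding TSSs with at least 20 reads of both libraries together and reads in each. Red points are the 10 genes, of which Slc7a11 and Slc7a3 are below that minimum. Dashed lines mark 3 times the local level. Atf4 and Asns lie past both lines, Slc7a1, Slc3a2 and Slc7a5 past the Msl1 line only, and none past the Nsl1 line only.

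Genes with and without a CARE site overlapped in their Msl1 level. Msl1 ranged from 0.991 to 4.47 times the local level at the 5 genes with a site and from 1.12 to 5.34 at the 5 genes without. The low ends are Slc7a11 and Slc7a3, with 6 Msl1 reads each and below the read minimum. Without them the low ends were 1.43 at Ddit3 and 1.99 at Slc1a5. The part of sequence composition in the read counts was not tested.

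Further genes of the pathway were counted in the same way, and the lists were not tested against each other. Of 18 other Atf4 targets, 12 reached 3 times the local level in Msl1 (66.7%) and 6 in Nsl1 (33.3%), beside 29.8% of all TSSs in each library, with medians of 3.24 and 1.99. The Msl1 count rests in part on genes near the mark, such as Gadd45a with 3.02 times (2.04 to 4.32) and Gpt2 with 3.18 times (2.30 to 4.28). Just below it lay Aldh18a1 with 2.99 times (1.98 to 4.32) and Cbs with 2.97 times (2.13 to 4.03). Eif4ebp1, an inhibitor of cap-dependent translation, was highest in Msl1 with 5.81 times (4.67 to 7.14) and had 1.95 times in Nsl1 (1.27 to 2.85). Psph, the last enzyme of serine synthesis, was highest in Nsl1 with 12.02 times (10.0 to 14.3) and had 3.26 times in Msl1 (2.23 to 4.60). Pycr1, an enzyme of proline synthesis, was lowest in Msl1 over the local level with 0.960 times (0.633 to 1.40). It held 27 Msl1 reads, while Phgdh held 20 at 2.21 times the local level.

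Of the 11 other genes of the Slc7 family with the heavy chain gene Slc3a1, 10 passed the read minimum, and 2 reached 3 times the local level in Msl1 (20%) and 1 in Nsl1 (10%), beside 29.8% of all TSSs in each library. Slc7a6, another light chain that pairs with Slc3a2, was highest in both, 3.54 times in Msl1 (2.69 to 4.56) and 3.52 times in Nsl1 (2.63 to 4.62). Slc7a9, the light chain partner of Slc3a1 in kidney and gut, was lowest in Msl1 with 0.654 times (0.263 to 1.35). Of 22 other amino acid transporters, 20 passed the minimum, and 7 reached the mark in each library (35%), a share near the 29.8% of all TSSs. Slc1a4 was highest in Msl1 with 5.23 times (4.16 to 6.50) and had 2.29 times in Nsl1 (1.67 to 3.05). Slc38a6 was highest in Nsl1 with 11.8 times (9.74 to 14.2) and also passed the mark in Msl1, with 3.29 times (2.22 to 4.69). Slc38a2, a glutamine importer and itself an Atf4 target, was like Slc7a1 in passing the mark for Msl1 alone, with 4.01 times in Msl1 (2.96 to 5.32) and 1.36 times in Nsl1 (0.829 to 2.09). Slc38a7, a lysosomal glutamine exporter, was the other way round, with 1.24 times in Msl1 (0.734 to 1.96) and 6.84 times in Nsl1 (5.52 to 8.38).

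Of 13 eIF2 kinases and factors of the stress response, 6 reached 3 times the local level in Msl1 (46.2%) and 5 in Nsl1 (38.5%), beside 29.8% of all TSSs in each library, with medians of 2.79 and 2.60. The Msl1 count rests in part on Eif2ak3 and Eif2ak4, both at 3.01 times (2.09 to 4.18 and 1.93 to 4.48). The next gene below the mark was Ppp1r15b with 2.79 times. The kinase gene Eif2ak1, which responds to low heme, was highest in both, 12.5 times in Msl1 (8.53 to 17.6) and 18.1 times in Nsl1 (13.6 to 23.7). These rest on 32 Msl1 and 54 Nsl1 reads over a low local level. By reads other genes of the list were above Eif2ak1, among them Atf5 with 55 and Atf3 with 43 Msl1 reads. In Nsl1, Eif2s1 held 88 reads and Cebpg 60. Eif2s1, the phosphorylated subunit of eIF2, had 2.20 times in Msl1 (1.41 to 3.27) and 7.26 times in Nsl1 (5.82 to 8.94). Atf3, a factor induced by Atf4, had 4.35 times in Msl1 (3.15 to 5.86) and 2.45 times in Nsl1 (1.68 to 3.44).

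**Figure D5:**
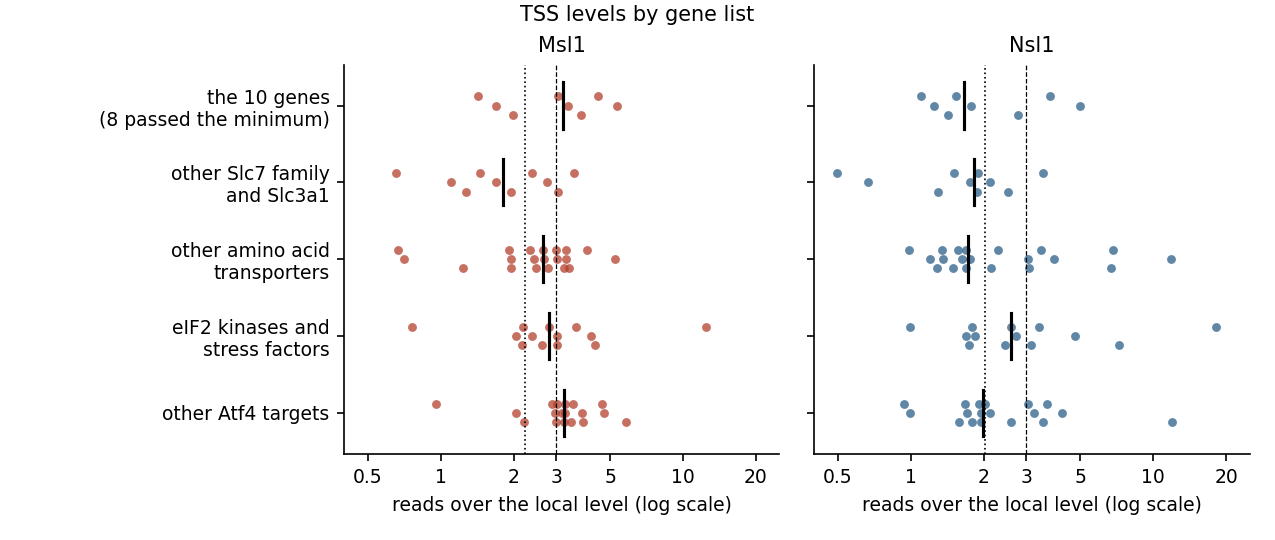
Reads within 500 bases of the TSS over the local level (x axis, log scale) for the genes of each list with at least 20 reads (y axis), Msl1 on the left and Nsl1 on the right; bars are list medians, dotted lines the medians of all TSSs (2.22 and 2.02) and dashed lines 3 times the local level. For Msl1, the other Atf4 targets have a median of 3.24 and the other Slc7 genes one of 1.81, while the Nsl1 medians of all lists lie between 1.65 and 2.60.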

How the data were processed

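ChIP-seq of Msl1 and Nsl1 in mESCs was compared, with 1 library per antibody. Per the methods and the submitters' processing notes, single-end reads were base called with CASAVA 1.8.2 and unique alignments to mm9 were made with Bowtie 0.12.7. The authors deposited the position and strand of each read, with a score for its alignment, 1 line per read and without normalization. The deposited score is 255 on every line and was not used as a measurement. All read positions lay within the chromosome lengths of the mm9 genome used here.

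Mitochondrial reads (0.145% and 0.0473%) were left out, 1 read was kept per position and strand, and reads were shifted to fragment centres, by 107 bases for Msl1 and 67 bases for Nsl1. The lag of best agreement between strands, searched from 80 to 400 bases, gave the fragment length. Genes came from GENCODE vM1 on mm9. The TSS of a gene was the start of the transcript with the longest coding sequence, and of a name shared by several gene IDs the first was used. Sequences were read from this genome and coordinates count from 1. Python 3.11.15, numpy 2.4.6, pandas 2.3.3, scipy 1.17.1 and matplotlib 3.10.9 were used, and the counting was tested on simulated data.

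The members and lists were chosen with earlier results of these data known. All 10 genes are named, with the other annotated starts within 5 kb unless these lay less than 250 bases from a named start, and, of each further list, examples from the 2 highest and 2 lowest genes in each library. The Input of another study and the expression data were not used here. No tests were run, so there are no p-values. The alternatives were all reads kept, a shift of 100 bases, the TSS farthest upstream, other windows, other background levels and the second start of Slc3a2.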

Additional observations from a re-analysis of the deposited data

How the results depend on the processing

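No paired analysis was possible because each antibody had 1 library and no result comes from a test. With a window of 1000 bases, Nsl1 reached 3 times the background at 1 of the genes in place of 2 (16.9% of all TSSs), and with the local level taken from 5 to 20 kb, Msl1 reached it at 3 in place of 5 (28.9% of all TSSs). With the local level taken off both windows, the median downstream ratio of Nsl1 fell from 0.706 to 0.212, and that of all TSSs from 0.576 to 0.111. The cause of these changes was not tested. Against the mean level of the library over the genome, Msl1 reached 3 times at 6 genes and Nsl1 at 3, beside 54.0% and 42.9% of all TSSs. The 29 other values of counts and medians stayed within 1.5 times, or for medians within the spread of the genes. At single genes, 23 values moved out of the counting interval of the value reported and 177 did not. Measured at the second start of Slc3a2, a choice made after seeing the data, Msl1 reached 3 times the local level at 4 genes. The local level at that start includes Snhg1. Depth limits Slc7a11 and Slc7a3, with 15 and 13 reads.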
